A study of Mus musculus with 12 samples.

Results

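Snhg11 and Kantr are a pair of genes that were chosen by their very high level in RNA pulled down with YTHDF1, both over input and over RNA pulled down with YTHDF2 or YTHDF3. They are 2 of the 55573 genes in the count table, and both were among the 17126 genes that passed the filter on low counts. RNA immunoprecipitation and sequencing (RIP-seq) was done on wild-type primary hippocampal neurons of newborn C57BL/6 mice after 14 days in culture. Hippocampi of both sexes from a litter were pooled, and a drug against dividing cells limited glia. The 12 libraries formed 4 groups of 3 replicates: total RNA of the lysate (Input), and RNA recovered with an antibody against endogenous YTHDF1, YTHDF2 or YTHDF3 (each named as that protein's RIP). The study's methods state that lysate was pooled and divided among the RIPs of a replicate, with a shared input. A pull-down with a control antibody was not analysed here, so all differences are relative to input or to another RIP.

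YTHDF1, YTHDF2 and YTHDF3 are closely related proteins of the cytoplasm. They recognize m6A (N6-methyladenosine), a modified base that is common in messenger RNA and is placed mostly within a short sequence context. Snhg11 is a small nucleolar RNA (snoRNA) host gene, that is, a gene whose introns hold snoRNAs, which guide chemical modification of other RNAs. Its spliced RNA is a brain-rich transcript known as mainly nuclear. Kantr, the Kdm5c-adjacent non-coding transcript, is named after its neighbour, the X-linked histone demethylase gene Kdm5c. The annotation used for counting lists both genes as protein coding, whereas RefSeq types both as long non-coding RNA.

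Snhg11 (ENSMUSG00000044349) lies on the plus strand of GRCm38 chromosome 2 at 158375638-158386145, with 8521 counted exonic bases. Kantr (ENSMUSG00000087403) lies on the minus strand of chromosome X at 152294828-152327495, with 5089 exonic bases. GENCODE vM21, an annotation of the same build, gives Snhg11 5 transcripts and Kantr 7. In the longest transcript of each, nearly all of the length is a single terminal exon, of 5207 of 5864 bases in Snhg11-201 and of 4047 of 4212 bases in Kantr-207. The annotated coding sequence is short in both, 87 codons in Snhg11-201 and 76 codons in Kantr-207, which is 4.45% and 5.41% of the transcript.

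The 5-letter word GGACT, the DNA form of the most frequent m6A context, occurs 11 times in Snhg11-201 and 4 times in Kantr-207. It was searched on the transcript strand, with overlapping matches allowed. The windows of 25 bases below show where such words lie in the 2 RNAs, with the word in capitals. They are 1 word before and 2 after the coding sequence of Snhg11-201, and 1 before and 2 after that of Kantr-207.
Snhg11 chr2:158376137-158376161 (plus strand, exon 2, before the coding sequence): cgggatgctaGGACTcctgtgtggc
Snhg11 chr2:158382331-158382355 (plus strand, exon 5, after the coding sequence): tctatagacaGGACTaccaggccta
Snhg11 chr2:158386088-158386112 (plus strand, exon 5, after the coding sequence): ccgctgtaatGGACTcacctctctt
Kantr chrX:152298489-152298513 (minus strand, exon 3, before the coding sequence): ccacctgcagGGACTacagcgagat
Kantr chrX:152295301-152295325 (minus strand, exon 3, after the coding sequence): tcttctccatGGACTagatgttcct
Kantr chrX:152295172-152295196 (minus strand, exon 3, after the coding sequence): tccacctgcaGGACTtctgtatttc

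A match is only a description of the letters, and methylation was not measured in these libraries. Of the 11 words in Snhg11-201, 2 stood before the coding sequence and 9 after it, and of the 4 in Kantr-207, 1 stood before and 3 after. Snhg11-201 held 1.88 words per kb, a density above that of 87.1% of the 17120 tested genes with a GENCODE transcript, taking the longest transcript of each gene. Kantr-207 held 0.950 per kb, above 48.4% of them and close to the median of 0.976. Among 1227 genes whose longest transcript was within 10% of the length of Snhg11-201, 99.1% held the word at least once, and 6.03% held it 11 times or more. Among 2132 genes of the length of Kantr-207, 98.3% held it and 62.2% held it 4 times or more. In this feature the 2 transcripts differed. Their GC content was 44.8% in Snhg11-201 and 37.5% in Kantr-207, which is above that of 25.4% and 2.24% of these genes, against a median of 49.6%.

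**Figure D1:**
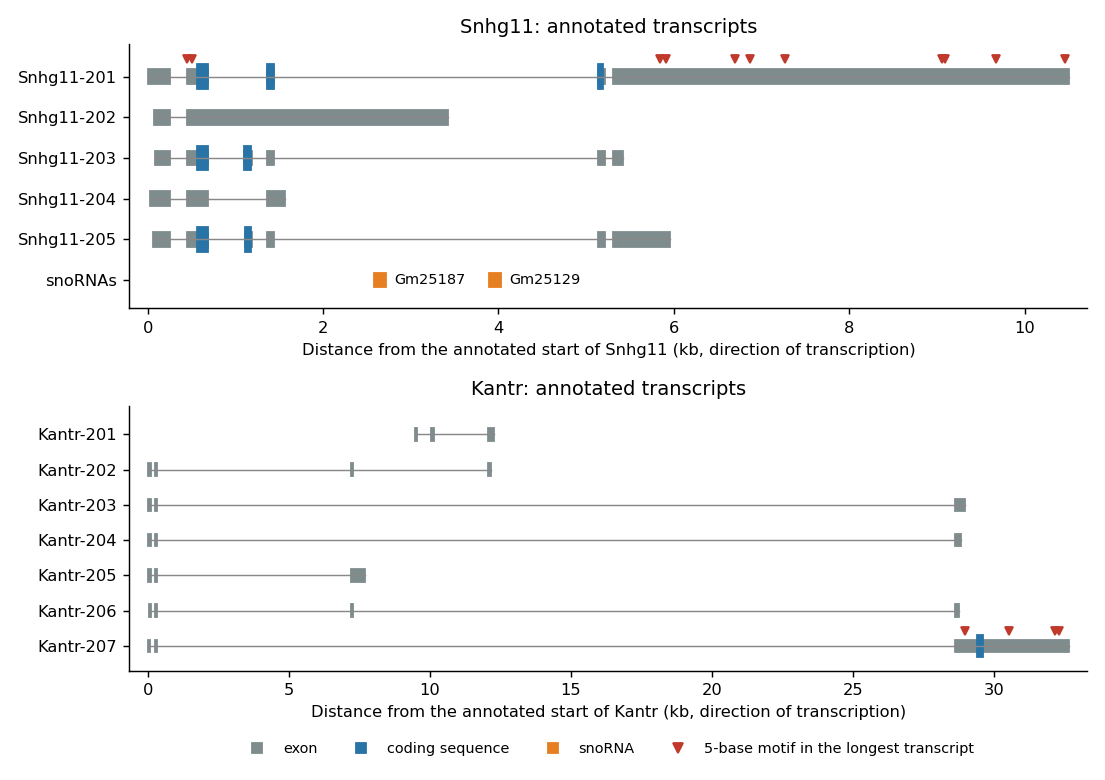
Annotated transcripts of Snhg11 (5) and Kantr (7), drawn to scale by distance in kb from the annotated start of each gene, with exons in grey, coding sequence in blue, the 2 snoRNAs within Snhg11 in orange and the word searched for in the longest transcript as red triangles. Most of the 11 words of Snhg11-201 and all 4 of Kantr-207 lie in the long terminal exon.

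Snhg11 lay well above the middle of the tested genes in Input and was one of the most abundant RNAs of the YTHDF1 RIP. Levels are given as normalized CPM, which are counts divided by the scaled library size. In Input Snhg11 was at 240.3, 140.3 and 71.5 CPM in replicates 1, 2 and 3. In the YTHDF1 RIP it was at 12053, 10740 and 6187 CPM. With YTHDF2 it was at 477, 277 and 653 CPM, and with YTHDF3 at 752, 513 and 315 CPM. The lowest YTHDF1 library was 8.23 times the highest library of any other group, while the YTHDF2 and YTHDF3 libraries overlapped with each other and lay just above Input.

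The raw counts behind these levels were 668 to 3157 for Input, 104561 to 170639 with YTHDF1, 1854 to 5848 with YTHDF2 and 9528 to 19345 with YTHDF3. Snhg11 alone took 0.744 ± 0.302% of all counts with YTHDF1 (mean ± SD, n = 3), against 0.0150 ± 0.00822% for Input, 0.0484 ± 0.0164% with YTHDF2 and 0.0646 ± 0.0218% with YTHDF3. By mean CPM it ranked 922 of 17126 genes in Input, 162 with YTHDF2, 182 with YTHDF3 and 3 with YTHDF1. Per kb of exonic length, which is the scale for comparing genes, its ranks were 2679, 510, 383 and 33 in the same order of groups.

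Kantr was far less abundant than Snhg11, and near the middle of the tested genes in every group except the YTHDF1 RIP. In Input it was at 28.5, 18.4 and 10.8 CPM in replicates 1, 2 and 3. In the YTHDF1 RIP it was at 675, 1600 and 651 CPM. With YTHDF2 it was at 11.6, 6.57 and 12.9 CPM, and with YTHDF3 at 19.7, 22.5 and 15.1 CPM. The lowest YTHDF1 library was 22.9 times the highest library of any other group, and the YTHDF2 and YTHDF3 libraries both overlapped with Input but not with each other. The raw counts behind the YTHDF2 values were only 44 to 115, against 5854 to 22429 in the YTHDF1 RIP. By mean CPM Kantr ranked 7105 of 17126 genes in Input, 8999 with YTHDF2, 6411 with YTHDF3 and 182 with YTHDF1.

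**Figure D2:**
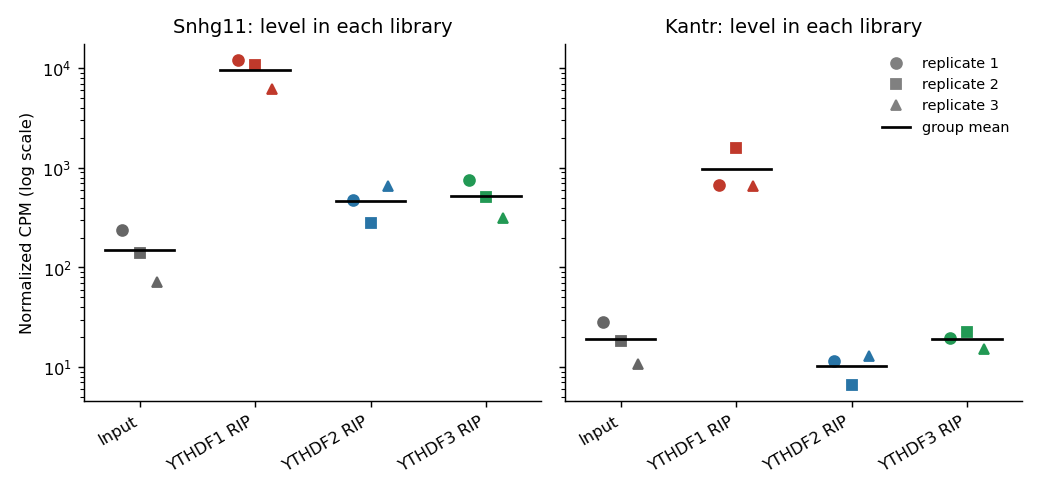
Normalized CPM (log scale) of Snhg11 (left) and Kantr (right) in each of the 12 libraries, with symbols for replicates 1 to 3 and a bar for the mean of each group. The 3 YTHDF1 libraries stand above every other library for both genes, and Snhg11 but not Kantr is higher in the YTHDF2 and YTHDF3 RIPs than in Input.

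Since this excess chose the genes, the differences that follow are given with no test. Over Input, Snhg11 was 6.00 ± 0.59 higher in the YTHDF1 RIP on the log2 scale and Kantr 5.66 ± 0.50 (fitted difference ± SE, n = 3 per group). In that comparison 27.2% of tested genes were called higher and 25.8% lower, a call being a log2 difference of at least 0.32 in size with an adjusted p of at most 0.05. Against the YTHDF2 RIP the differences were 4.36 ± 0.55 for Snhg11 and 6.55 ± 0.53 for Kantr. Against the YTHDF3 RIP they were 4.20 ± 0.54 for Snhg11 and 5.67 ± 0.50 for Kantr. As ratios of mean CPM, Snhg11 was 64.1 times Input, 20.6 times the YTHDF2 RIP and 18.3 times the YTHDF3 RIP, and Kantr was 50.7, 94.4 and 51.01 times the same groups. Over Input the 2 values lay within 1 SE of each other, and against the other RIPs the values of Kantr were the larger.

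A YTHDF1 preference was defined as the smallest of these 3 log2 differences, over the 10906 genes whose mean normalized count reached 100. Kantr, at 5.66, ranked 2 and Snhg11, at 4.20, ranked 17. Only 24 of the 10906 genes had a preference over 4, 96 over 3 and 281 over 2. The other genes at the top were Gm37464 (5.66) and Gm37499 (4.98), both with no settled gene type, the long intergenic RNA Gm47033 (5.55), and Snord64 (4.96), a snoRNA of the imprinted Snrpn region. In CPM, which are not scaled by gene length, the mean in the YTHDF1 RIP was 9660 ± 3079 for Snhg11 and 975 ± 541 for Kantr. The means of the other 4 lay between 29.3 and 143 CPM. The highest of these was that of Snord64, which has 67 bases, against 8521 in Snhg11. These levels therefore do not compare the genes per base. With any 1 library left out, the rank of Snhg11 lay between 10 and 35.

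**Figure D3:**
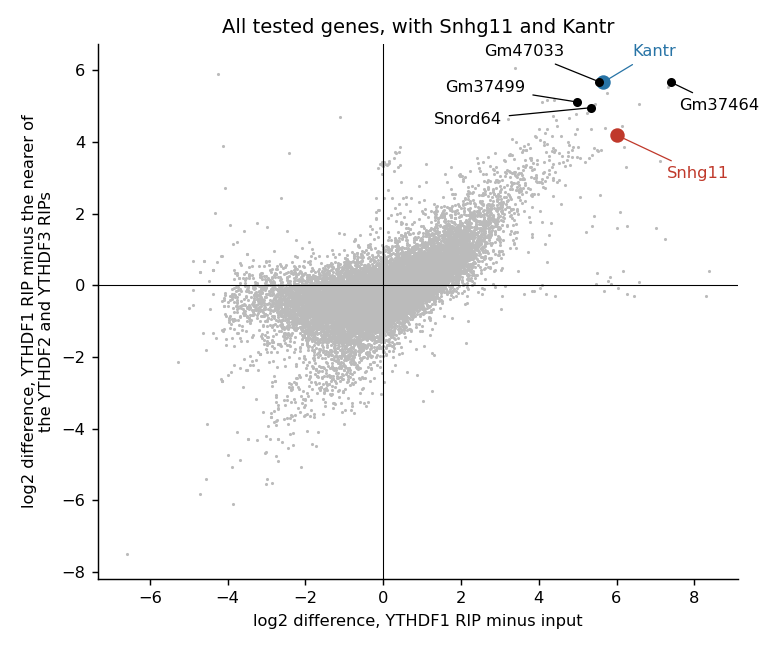
Each grey point is 1 of the 17126 tested genes, by its fitted log2 difference between YTHDF1 RIP and input (horizontal) and between YTHDF1 RIP and the nearer of the YTHDF2 and YTHDF3 RIPs (vertical). Snhg11 (red, 6.00 and 4.20) and Kantr (blue, 5.66 and 5.67) lie at the upper right edge with the 4 other genes of highest preference (black).

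The differences of the YTHDF2 and YTHDF3 RIPs from Input were not themselves used in the choice, but the levels of these groups were. A gene picked for its excess over these RIPs and Input will tend to be low in each of them. The choice can thus bias these differences either way, and their adjusted p-values are a description only. Here the 2 genes differed. Snhg11 was also higher than Input in both, by 1.64 ± 0.49 (95% interval 0.56 to 2.71, adjusted p = 0.0233, edgeR's quasi-likelihood test) in the YTHDF2 RIP and by 1.81 ± 0.49 (0.73 to 2.88, adjusted p = 0.0127) in the YTHDF3 RIP. All 3 libraries of each RIP lay above all 3 of Input. Of all tested genes, 15.7% were called higher and 19% lower with YTHDF2, and 16.4% higher and 23% lower with YTHDF3. The replicate numbers paired the YTHDF3 and Input libraries, and by number Snhg11 was 3.13, 3.66 and 4.40 times its input. The interval and adjusted p given for Snhg11 in the YTHDF3 RIP ignore this pairing. With the number as a block in the 6 YTHDF3 and Input libraries alone, the genes called higher in the YTHDF3 RIP went from 2817 to 6212. These 6 libraries fitted without the block gave 3764, and the block in all 12 libraries gave 2782.

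Kantr passed the test in neither comparison. Its difference from Input was -0.89 ± 0.43 (-1.84 to 0.06, adjusted p = 0.131) in the YTHDF2 RIP and -0.01 ± 0.42 (-0.93 to 0.90, adjusted p = 0.987) in the YTHDF3 RIP. By replicate number Kantr in the YTHDF3 RIP was 0.691, 1.23 and 1.40 times its input, so that 1 pair lay below and 2 above. The interval given ignores this pairing. With the number as a block in those libraries alone, edgeR's test put Kantr at 0.091 (adjusted p = 0.613). Neither gene was called between the YTHDF3 and YTHDF2 RIPs, where the threshold was a fold of at least 2 and 1.16% of genes were called higher and 3.95% lower. The difference was 0.17 ± 0.48 (-0.88 to 1.21, adjusted p = 0.872) for Snhg11 and 0.88 ± 0.43 (-0.06 to 1.83, adjusted p = 0.229) for Kantr.

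The call for Snhg11 in the YTHDF2 RIP was lost without Input replicate 2 (1.59, adjusted p = 0.0729), Input replicate 3 (1.27, 0.0762), YTHDF2 replicate 1 (1.63, 0.0567) or YTHDF2 replicate 3 (1.32, 0.0866), and with the replicate number as a block in the YTHDF2 and Input libraries alone (1.69, 0.0550). With the trend of each library on gene length removed, Snhg11 was at 1.22 (adjusted p = 0.0764) in the YTHDF2 RIP and at 1.14 (adjusted p = 0.0937) in the YTHDF3 RIP. Kantr was called lower than Input in the YTHDF2 RIP (-1.001, adjusted p = 0.0135) and higher in the YTHDF3 than in the YTHDF2 RIP (1.11, adjusted p = 0.0119) when no filter on low counts was set. The exonic length of Snhg11 was above that of 86.7% of tested genes, and that of Kantr above 63.8%.

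The ratio of the 2 genes within a library does not depend on the scaling between libraries. In Input there were 8.44, 7.63 and 6.61 Snhg11 counts per Kantr count. With YTHDF1 there were 17.9, 6.71 and 9.51, with YTHDF2 41.3, 42.1 and 50.9, and with YTHDF3 38.2, 22.8 and 20.8. The YTHDF1 libraries therefore overlapped with Input, and all YTHDF2 and YTHDF3 libraries lay above every library of these groups. The mean ratio was 7.56 ± 0.92 in Input (mean ± SD, n = 3), 11.4 ± 5.80 with YTHDF1, 44.8 ± 5.30 with YTHDF2 and 27.3 ± 9.54 with YTHDF3. Per base of exonic length these means became 4.52, 6.78, 26.7 and 16.3.

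A test of the log2 ratio was planned over all 12 libraries, but the YTHDF1 values chose the genes, so its p is not given. A test over the 9 libraries of the other groups was added after the data were seen. For the log2 ratio among Input, YTHDF2 RIP and YTHDF3 RIP an exact permutation test gave p = 0.00357, the smallest that the 280 assignments of libraries to groups allow. The test moved all 9 libraries freely between groups, although the YTHDF3 and Input libraries paired by number. The Input, YTHDF2 and YTHDF3 values also entered the choice of the genes, as the levels that YTHDF1 exceeded, so this p is a description only.

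**Figure D4:**
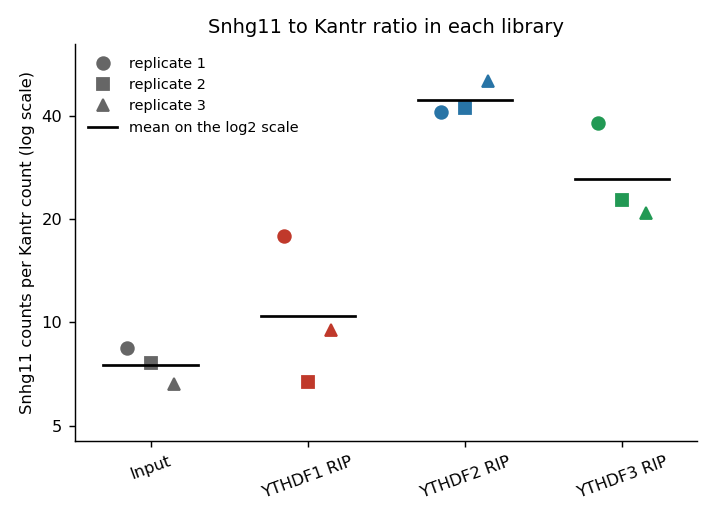
Snhg11 counts per Kantr count (log scale) in each of the 12 libraries, with symbols for replicates 1 to 3 and a bar for the group mean on the log2 scale. Input (6.61 to 8.44) and YTHDF1 RIP (6.71 to 17.9) overlap and lie below the YTHDF2 RIP (41.3 to 50.9) and YTHDF3 RIP (20.8 to 38.2).

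Both genes varied widely within groups. The coefficient of variation of CPM was 56.3% for Snhg11 and 46.1% for Kantr in Input, and 31.9% and 55.5% in the YTHDF1 RIP. In Input both were highest in replicate 1 and lowest in replicate 3, as was the summed level of 9 neuronal markers, at 4720, 3650 and 2910 CPM. The summed level of 5 astrocyte markers went the other way, at 989, 2480 and 3230 CPM. With YTHDF2 both genes had the order of the neuronal markers (2910, 1920 and 3150 CPM), highest in replicate 3 and lowest in replicate 2. In the YTHDF3 RIP Snhg11 followed the neuronal markers (6430, 4650 and 3220 CPM) in the same order, whereas Kantr was highest in replicate 2. In the YTHDF1 RIP, where Snhg11 was lowest in replicate 3, the neuronal markers were highest there (4660, 6330 and 7840 CPM). The astrocyte markers were at 1140, 1880 and 2790 CPM with YTHDF1 and at 1610, 1770 and 2230 CPM with YTHDF2. With YTHDF3 they were at 1190, 2520 and 2490 CPM, highest in replicate 2 as Kantr was. In a RIP a marker sum also depends on how much of each marker RNA was pulled down. The part of cell makeup in the levels of Snhg11 and Kantr was not tested. In bulk RNA fewer cells of a type cannot be told apart from less RNA per cell. Summed markers of oligodendrocytes, microglia and endothelium were at most 22.1, 4.28 and 2.12 CPM in Input, and none of the 25 markers was at 0 in all inputs.

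The 2 snoRNAs annotated within Snhg11, Gm25187 and Gm25129, are shown because they lie within Snhg11 but are counted as genes of their own. Both have 133 bases and end in ACA (capitals), the triplet that marks the 3′ end of the H/ACA class of snoRNAs.
Gm25187 chr2:158378222-158378354 (plus strand): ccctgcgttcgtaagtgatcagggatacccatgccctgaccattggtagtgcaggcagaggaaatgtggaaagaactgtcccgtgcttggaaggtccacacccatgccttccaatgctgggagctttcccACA
Gm25129 chr2:158379534-158379666 (plus strand): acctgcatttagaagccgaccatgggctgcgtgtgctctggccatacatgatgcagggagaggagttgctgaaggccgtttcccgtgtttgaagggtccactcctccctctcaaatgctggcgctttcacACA
They are 68.4% identical in a global alignment. Gm25187 lies inside an exon of 1 of the 5 Snhg11 transcripts, so a read there was counted for both genes. Gm25129 lies in an exon of no annotated Snhg11 transcript.

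Gm25129 was higher than Input in all 3 RIPs, as was Snhg11. Its counts were 3, 4 and 0 in Input, 123, 246 and 309 with YTHDF1, 6, 4 and 13 with YTHDF2, and 33, 20 and 21 with YTHDF3. It passed the filter on low counts through the YTHDF1 libraries, so its differences that involve them are given with no test. Its fitted log2 difference from Input was 6.18 ± 0.57 with YTHDF1, 2.31 ± 0.64 with YTHDF2 (adjusted p = 0.0157) and 2.21 ± 0.59 with YTHDF3 (adjusted p = 0.0112). The call with YTHDF2 was lost without YTHDF2 replicate 3 (1.85, adjusted p = 0.0795) and with the replicate block in these 2 groups alone (2.24, adjusted p = 0.118). Against the other RIPs it was 3.87 ± 0.49 higher in the YTHDF1 than in the YTHDF2 RIP and 3.97 ± 0.46 higher than in the YTHDF3 RIP. Per 1000 Snhg11 counts, the 3 libraries of a group together held 1.22 Gm25129 counts in Input (exact 95% interval 0.490 to 2.51), 1.59 (1.47 to 1.72) with YTHDF1, 2.04 (1.29 to 3.06) with YTHDF2 and 1.73 (1.36 to 2.17) with YTHDF3. All these intervals, which cover counting error only, overlap, and that of Input rests on 7 counts.

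Gm25187 had 4, 2 and 0 counts in Input and 50, 99 and 162 in the YTHDF1 RIP, a log2 difference of 5.20 ± 0.68. This difference is given with no test, since its reads also count for Snhg11 and the YTHDF1 libraries carried it past the filter. With YTHDF2 it had 4, 0 and 4 counts and with YTHDF3 19, 12 and 16, with log2 differences of 1.03 ± 0.86 (adjusted p = 0.380) and 1.76 ± 0.72 (adjusted p = 0.0712) from Input, neither of which was called. With the replicate block in the YTHDF3 and Input libraries alone, the value with YTHDF3 was called (1.81, adjusted p = 0.0104), as it was under 5 other settings, at 1.83 to 3.30, and without either of 2 single libraries. Per 1000 Snhg11 counts, the exact 95% intervals of its counts were 0.383 to 2.28 in Input, 0.652 to 0.816 with YTHDF1, 0.306 to 1.40 with YTHDF2 and 0.808 to 1.46 with YTHDF3. These overlap, those of YTHDF1 and YTHDF3 only narrowly, and those of Input and YTHDF2 rest on 6 and 8 counts. They cover counting error only. Single libraries held 0.478, 0.658 and 0.949 with YTHDF1 and 0.982, 0.865 and 1.68 with YTHDF3.

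Apart from its snoRNAs, the tested genes near Snhg11 had much smaller values in the YTHDF1 RIP. Of 13 annotated genes within 100 kb, 6 passed the filter, among them both snoRNAs, whose values with YTHDF1 were not tested. Of the others, only Ralgapb was called higher in the YTHDF1 RIP, where 27.2% of all tested genes were. Ralgapb encodes the regulatory subunit of a GTPase-activating complex for Ral. Ralgapb was 1.24 ± 0.20 higher than Input on the log2 scale (adjusted p = 0.000428), and 0.099 (adjusted p = 0.614) with the length trend removed. Snhg17, another snoRNA host gene on the opposite strand 14058 bases away, was highest in the YTHDF2 RIP. It had 7.04 ± 1.38 CPM in Input (mean ± SD, n = 3), 5.82 ± 3.18 with YTHDF1, 22.4 ± 5.49 with YTHDF2 and 15.6 ± 0.82 with YTHDF3. It was called higher than Input in the YTHDF2 RIP (1.67 ± 0.37, adjusted p = 0.0055) and the YTHDF3 RIP (1.15 ± 0.37, adjusted p = 0.0266), and its value in the YTHDF1 RIP was -0.30 ± 0.37 (adjusted p = 0.528). Between RIPs Snhg17 was lower with YTHDF1 than with YTHDF2 (-1.96 ± 0.38, adjusted p = 0.00266) and than with YTHDF3 (-1.44 ± 0.37, adjusted p = 0.0167).

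Gm26003, a snoRNA within Snhg17, had at most 2 counts in any Input library and 8 to 16 in the YTHDF2 libraries. Its log2 differences from Input were 4.26 ± 0.68 with YTHDF2, 3.51 ± 0.67 with YTHDF3 and 1.02 ± 0.83 with YTHDF1, given with no test since it passed the filter only through the YTHDF2 and YTHDF3 libraries. Its sequence was 66.4% identical to Gm25187 and 60.4% to Gm25129. Lbp, the lipopolysaccharide-binding protein gene, had at most 33 counts in a library and was called in no RIP.

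Near Kantr, 5 of 6 annotated genes within 100 kb passed the filter, and 2 were called higher in the YTHDF1 RIP, against 27.2% of all tested genes, with values far below that of Kantr. Kdm5c was 1.62 ± 0.21 higher than Input (adjusted p = 8.13e-05) and was also called higher in the YTHDF2 RIP (0.84 ± 0.20, adjusted p = 0.00806) and YTHDF3 RIP (1.06 ± 0.20, adjusted p = 0.00168). It was called in neither comparison of the YTHDF1 RIP with another RIP at a fold of 2, where its log2 differences were 0.77 ± 0.20 and 0.55 ± 0.20. Tspyl2, a gene of the nucleosome assembly protein family on the same strand as Kantr, was 1.06 ± 0.29 higher in the YTHDF1 RIP (adjusted p = 0.00974) and 0.95 ± 0.29 higher in the YTHDF2 RIP (adjusted p = 0.026). Without Input replicate 3, Tspyl2 was at 0.79 in the YTHDF1 RIP and lost its call (adjusted p = 0.0632), as it did with library size as the scaling (0.66, adjusted p = 0.0529) and with the replicate block in these 2 groups alone (0.93, adjusted p = 0.103). Iqsec2, which encodes a synaptic activator of Arf proteins, and the orphan receptor gene Gpr173 were called in no RIP. The non-coding 3010001F23Rik was called higher in the YTHDF2 RIP, at 1.24 ± 0.39 (adjusted p = 0.0292), and was lower with YTHDF1 than with YTHDF2 (-1.77 ± 0.40, adjusted p = 0.00708).

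**Figure D5:**
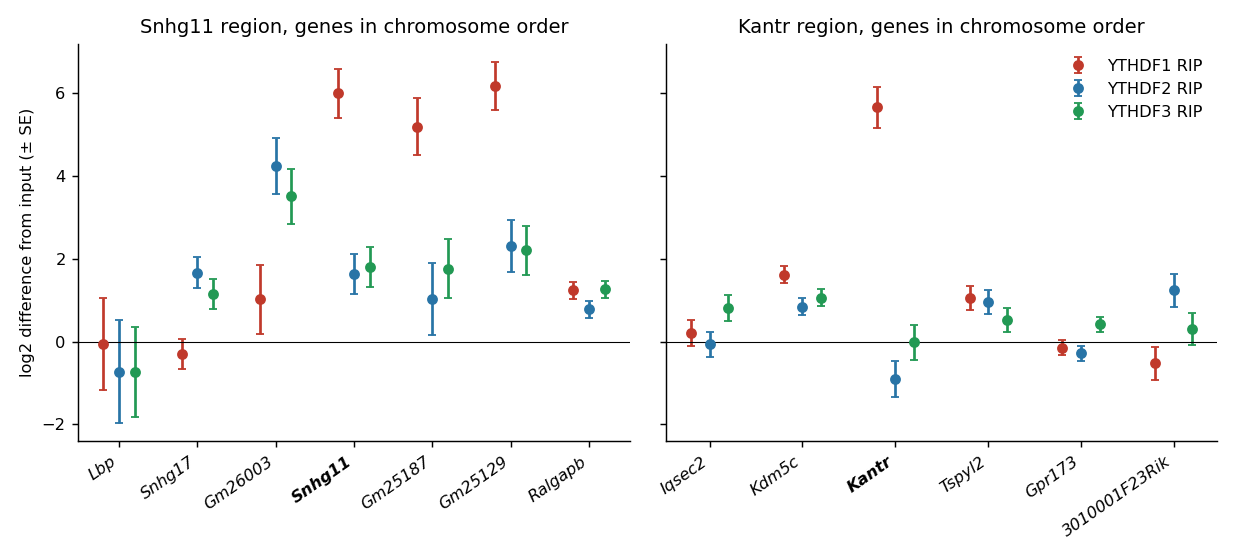
Fitted log2 difference from input (points, with SE bars, n = 3 per group) in the YTHDF1 (red), YTHDF2 (blue) and YTHDF3 (green) RIPs for Snhg11, Kantr and the tested genes within 100 kb, in chromosome order. Snhg11 with its snoRNAs Gm25187 and Gm25129, and Kantr alone in its region, reach over 5 in the YTHDF1 RIP, while Snhg17 and Gm26003 are higher with YTHDF2 and YTHDF3.

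Other snoRNA host genes and nuclear long non-coding RNAs were taken as lists for comparison. Of 18 listed snoRNA host genes other than Snhg11, 14 were tested. In the YTHDF1 RIP 1 was called higher and 7 lower (27.2% and 25.8% of all tested genes were), and their median log2 difference from Input was -1.02, against 0.02 over all tested genes. The 1 that rose was Snhg14, the long host RNA of the imprinted Snrpn region, at 4.74 ± 0.41 (adjusted p = 8.52e-06). The next highest, Snhg3, was at 0.06 ± 0.73 (adjusted p = 0.951) and changed sign with 1 library or the scaling, to a call of -1.62 (adjusted p = 0.019) without YTHDF1 replicate 1. At the low end were Snhg18 at -1.84 ± 0.52 (adjusted p = 0.0106) and Snhg6 at -2.83 ± 0.41 (adjusted p = 0.000178), and Snhg18 was at -1.26 (adjusted p = 0.0539) with the length trend removed and at -1.96 (adjusted p = 0.0611) with the replicate block in these 2 groups alone. With YTHDF2 1 host gene was called higher and 2 lower (all genes 15.7% and 19%), and with YTHDF3 1 higher and 5 lower (all genes 16.4% and 23%).

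The other list held 16 long non-coding RNAs, known mostly from the nucleus except Norad, which the study describes as cytoplasmic. Of these, 14 were tested, Norad not among them. In the YTHDF1 RIP 3 were called higher and 3 lower, shares near the 27.2% and 25.8% of all tested genes. Their median log2 difference was -0.405, against 0.02. The highest were Xist, the RNA that coats the inactive X chromosome, at 3.03 ± 0.72 (adjusted p = 0.00441), and the imprinted Peg13 at 2.55 ± 0.26 (adjusted p = 2.06e-05). The lowest were Malat1, an abundant RNA of nuclear speckles, at -2.91 ± 0.52 (adjusted p = 0.00069), and the imprinted Meg3 at -1.58 ± 0.50 (adjusted p = 0.0202). With the length trend removed Xist was at 1.68 (adjusted p = 0.0733). Meg3 lost its call without Input replicate 1 (-1.23, adjusted p = 0.0769). With YTHDF2 6 of the 14 were called higher and 0 lower by edgeR (all genes 15.7% and 19%; 8 higher and 1 lower by DESeq2 and at an unadjusted p under 0.05), and with YTHDF3 2 higher and 1 lower (all genes 16.4% and 23%).

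The genes whose pattern over the 12 libraries was most like that of the pair were mostly protein coding. Likeness was Pearson's r of log2 CPM with the 10905 other genes whose mean normalized count reached 100, and it rests largely on the 4 groups and the shared libraries. Most like Snhg11 were Ntn3 (0.990), a netrin gene, Tbc1d24 (0.986), which encodes a protein of vesicle traffic, Nxph1 (0.985), which encodes a neurexin ligand, Dctn1 (0.984), which encodes a dynactin subunit, and Tmem132c (0.981). These were picked for this likeness, so their levels are a description, for example Tbc1d24 with 139 ± 31.7 CPM in Input, 1723 ± 290.2 with YTHDF1, 262 ± 13.3 with YTHDF2 and 336 ± 73.4 with YTHDF3. Most like Kantr were Pcdhb13 (0.994), a clustered protocadherin gene, Ebag9 (0.994), Nufip2 (0.990), whose protein binds FMRP, Gm42547 (0.990) and Fgf14 (0.989), whose protein modulates sodium channels. Nufip2 had 80.5 ± 4.51 CPM in Input, 1404 ± 731 with YTHDF1, 57.8 ± 6.34 with YTHDF2 and 86.9 ± 13.6 with YTHDF3, so that, as for Kantr, the YTHDF1 RIP alone stood apart. The r between Snhg11 and Kantr was 0.911, which ranked Kantr 453 for Snhg11 and Snhg11 353 for Kantr.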

How the data were processed

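RIP-seq was done on 12 libraries in 4 labelled groups of 3. The authors built stranded total-RNA libraries with molecular identifiers, trimmed reads with cutadapt 3.4, aligned them to GRCm38 with STAR 2.7.7a, removed duplicates with UMI-tools 1.1.1 and counted genes of Ensembl release 97. The deposited counts are unnormalized gene totals made by featureCounts 2.0.1 by strand, with every overlapping gene and alignment credited, so a read can count for several genes. The deposited tables of the authors' own comparisons (log2 fold changes and p-values from DESeq2) supplied gene names only.

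Genes with a mean scaled count of at least 10 were kept (17126). TMM factors were computed on them, and edgeR 4.0.16 (R 4.3.3) fitted a quasi-likelihood model of 4 groups to all libraries, with Benjamini-Hochberg adjustment over all genes. Totals per library ran from 6020072 to 38909592. Log2 CPM used a prior count of 2. Differences of Snhg11 and Kantr that involve the YTHDF1 RIP were not tested, since they chose the genes. The members, lists and tests were chosen with earlier results of these data known. Named genes were the pair, the 5 most like each, the 5 of highest YTHDF1 preference, tested genes within 100 kb, and the 2 highest and lowest of each list. Lists were described by counts, with no set test. Sequences came from GENCODE vM21 transcripts, aligned with Biopython 1.88, and the sites shown were picked after they were found. Transcript typing of RefSeq came from its GRCm38.p6 table.

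Per the study's methods the 3 replicates were biological, each from pooled wells whose lysate was divided among the RIPs with 1 shared input. The labels do not say whether the numbers mark these lysates. Same-numbered YTHDF3 and Input libraries deviated together from their group means (r of 0.528 to 0.829), and in each other pair of groups at least 1 number did not. For YTHDF1 with YTHDF2 the r values were 0.059, 0.544 and 0.348. Blocked values are given where they changed a call among the differences refitted. These were all differences of Snhg11 and Kantr, each RIP against input for the snoRNAs of Snhg11, and YTHDF1 against input for other neighbouring and list genes. Other calls of such genes were not refitted with a block. The fit was tested on simulated counts. Alternatives were DESeq2 1.42.0, other scalings and filters, the replicate block, removal of the length trend, fits on the compared groups alone, and each library left out.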

Additional observations from a re-analysis of the deposited data

How the results depend on the processing

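With 3 libraries a group and as few as 44 Kantr counts in a YTHDF2 library, differences within the intervals given for Kantr were not excluded by the fit without a replicate block. Of 66 recomputed values of the tested differences of Snhg11 and Kantr under other settings, 51 kept their direction and their side of the threshold, as did 63 of 72 with 1 library left out. Of the differences with YTHDF1, which were not tested, 64 of 66 and 71 of 72 moved by less than the replicate spread. The exceptions follow, and the cause was not tested.

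Scaling by library size alone moved the median of all genes by -0.403, 0.0692 and 0.325 (log2) in the YTHDF1, YTHDF2 and YTHDF3 RIPs against input. The share of calls that were higher went from 51.4% to 33.2% for YTHDF1 and from 41.7% to 61.4% for YTHDF3, with 3087 and 4822 genes called higher, against 4662 and 2817, and 718 called higher between YTHDF3 and YTHDF2, against 198. Over the YTHDF3 RIP, Snhg11 was then 3.53 higher in the YTHDF1 RIP and Kantr 4.92, Kantr in the YTHDF3 RIP was 0.32 from input, Iqsec2 with YTHDF1 was at -0.18 and Snhg3 at -0.21. With TMM over protein-coding genes, which moved the YTHDF1 median by -0.244 and the share higher to 40%, Iqsec2 was at -0.047 and Snhg3 at -0.15. Kantr in the YTHDF3 RIP was at 0.020 with DESeq2 and 0.018 with its size factors, and DESeq2 called 349 genes higher between YTHDF3 and YTHDF2. With no filter Kantr was at -1.001 with YTHDF2 against input, 0.11 with YTHDF3 against input and 1.11 between these RIPs, Snhg3 was at -0.092, and 769 genes were called higher and 1043 lower (against 676) between these RIPs.

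With the length trend removed, Snhg11 was at 1.22 with YTHDF2 and 1.14 with YTHDF3 against input, both no longer called, and at -0.085 between these RIPs, Iqsec2 was at -0.34, and 1486 genes were called higher with YTHDF3. With a replicate block as well, Snhg11 was at 1.17 with YTHDF3 and -0.25 between these RIPs, Iqsec2 was at -0.35, and 1420 genes were called higher with YTHDF3 and 113 between these RIPs. With the compared groups fitted alone, Kantr with YTHDF3 was at 0.033, Snhg3 at -0.00072, and 430 genes were called higher between YTHDF3 and YTHDF2.

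Per the study's methods the RIPs of a replicate share a lysate. Only the YTHDF3 and Input libraries deviated together by every number, and those of YTHDF1 and YTHDF2 did so in part. With the replicate block in all libraries, Kantr with YTHDF3 was at 0.019, Lbp at 0.14 and Snhg3 at -0.25. With the block in the compared groups alone, Snhg11 with YTHDF2 was at 1.69 (adjusted p = 0.0550), Kantr with YTHDF3 at 0.091, Lbp at 0.24 and Snhg3 at -0.79, and 2393 genes were called higher with YTHDF1 and 6212 with YTHDF3, and 99 higher and 294 lower between YTHDF3 and YTHDF2. The block changed no other call of Snhg11 or Kantr.

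With 1 library left out, Snhg11 with YTHDF2 ranged from 1.27 to 2.15 and between YTHDF3 and YTHDF2 from -0.18 (without YTHDF3 replicate 1) to 0.48. Kantr with YTHDF3 ranged from -0.25 to 0.38 (without Input replicate 1), and over the YTHDF3 RIP its YTHDF1 value ranged from 4.996 (without YTHDF1 replicate 2) to 5.89. Between YTHDF3 and YTHDF2, genes called higher ranged from 69 (without YTHDF3 replicate 2) to 347 (without YTHDF1 replicate 2), and lower from 110 (without YTHDF3 replicate 2) to 968. With YTHDF1 against input, Lbp ranged from -0.81 to 1.37, Snhg17 from -0.84 to 0.092, Iqsec2 from -0.053 to 0.37 and Snhg3 from -1.62 to 0.63.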
